A study of Mus musculus with 96 samples.

Results

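The cells described here were chosen by their measured Krt6a level: the 24 with the most and the 24 with the least Krt6a mRNA of 96 single daughter cells of horizontal basal cells (HBCs), the injury-activated stem cells of the olfactory epithelium (OE). Krt6a is given as CPM (counts per 1000000), the share of a cell's gene reads that lie on Krt6a times 1000000, with the reads on the ERCC spike-in left out. The cells were ranked by this value, and the 48 cells between the groups are called Krt6a-middle. All cells came from 1 condition. Wild type adult mice of 6 to 8 weeks received methimazole, which destroys much of the OE, and the OE was dissected 2 days later. HBCs were grown in dishes as primary cells, and both daughter cells of 48 divisions were picked with a mouth pipette and lysed singly. The RNA was made into G&T-seq libraries, 1 library per cell, after a fixed amount of synthetic ERCC RNA (the spike-in) had been added to each lysate. No mouse or culture is named for any cell, so that the 96 cells stand as 1 sample without replicates, and the groups were cut from a measured value and not by a treatment. Differences between the groups are therefore descriptions without p-values, and an SD over cells is a spread between cells and not an error between replicates.

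Krt6a is a type II keratin, a subunit of the intermediate filaments of epithelial cells, which it forms by pairing with type I keratins such as Krt16 and Krt17. These keratins are low in most resting stratified epithelia and are known to be switched on at wound edges, in hyperproliferative epidermis and in the companion layer of hair follicles. HBCs carry the basal keratins Krt5 and Krt14 and the transcription factor p63 (gene Trp63). After injury of the OE they are known to turn on wound-response genes, among them keratins and small proline-rich proteins, before they divide and give rise to the other cell types.

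Each library had 29454150 to 44849003 reads on genes. Krt6a-high cells had a median of 3.15% of their reads on ERCC transcripts and Krt6a-low cells 3.79%, with 12728.5 and 12632.5 genes detected. Mitochondrial genes took a median of 1.80% of the gene counts in Krt6a-high and 2.22% in Krt6a-low cells, so that these shares moved with Krt6a (Spearman's rho of Krt6a with the mitochondrial share −0.37 over 96 cells and −0.25 over the 48 middle cells, which share culture conditions and the same scaling). Their part in the differences was not tested. Trp63, Krt5 and Krt14, the markers of HBCs, were each counted in all 24 cells of both groups. Of 38 markers of other cell types of the OE, blood, immune, glial, endothelial and connective tissue, 18 had a count in each group, with summed levels of 0.259 to 226 CPM in Krt6a-high and 0.132 to 287 CPM in Krt6a-low cells. Markers of olfactory neurons had a count in 22 cells of each group, with summed levels up to 225 CPM in Krt6a-high and 124 CPM in Krt6a-low cells. Of 5 globose basal cell markers 2 had a count in each group, in 5 Krt6a-high and 6 Krt6a-low cells, and Kit was at 0 in both groups. The sustentacular marker Cyp2g1 had a count in 1 Krt6a-low cell. The other sustentacular markers, Cyp1a2, Ermn and Sult1c1, and both markers of Bowman gland cells were at 0 in both groups. The cells belong to 12 sets of 8, read from the names under which the data were deposited, and the groups were spread unevenly over them. Cell 4-2, the second daughter cell of pair 4, stood apart from the other libraries.

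Krt6a (ENSMUSG00000058354, minus strand of chromosome 15 of GRCm38, 101689910 to 101694307) was counted in all 96 cells. The 24 Krt6a-high cells had 6157 to 17548 CPM with a median of 7977. The 48 Krt6a-middle cells had 2219 to 6109 CPM with a median of 4020. The 24 Krt6a-low cells had 23.5 to 2179 CPM with a median of 1449. The ranking made these groups, so that their distance is no result. The levels ran on without a gap at both borders. The last cell inside the high group (43-1) had 6157 CPM and the first outside it (10-2) had 6109 CPM, and the last cell outside the low group (14-2) had 2219 CPM and the first inside it (30-2) had 2179 CPM. The steps were widest at the ends. The second highest cell had 12209 CPM after the 17548 CPM of cell 4-1, and the lowest 4 cells had 23.5 (4-2), 51.4 (19-1), 83.8 (19-2) and 362 CPM (3-2).

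**Figure D1:**
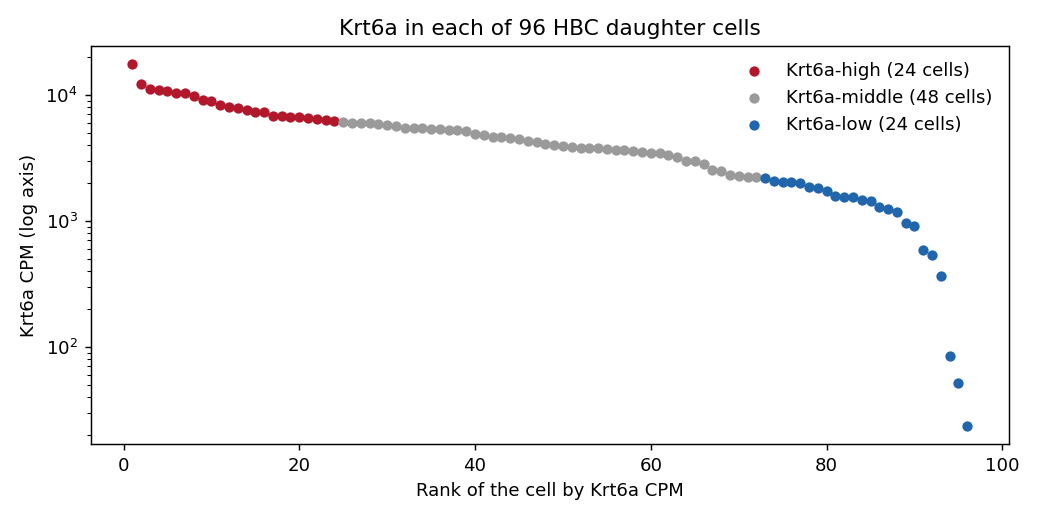
Krt6a level in each of the 96 cells (log axis, CPM) against its rank, colored by group. The level falls from 17548 CPM without a break at the borders of the groups, and the last 3 cells lie at 83.8, 51.4 and 23.5 CPM.

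In TPM, the deposited value scaled for gene length, Krt6a can be set beside the other keratins. Its own place among them was fixed by the choice of the cells. The median TPM in Krt6a-high cells was 5692 for Krt6a, 5668 for Krt17, 5152 for Krt14, 3055 for Krt19 and 2746 for Krt5. In Krt6a-low cells it was 970 for Krt6a, 2678 for Krt17, 2322 for Krt14, 1576 for Krt5 and 1541 for Krt19. The ranges of these genes overlapped within each group: in Krt6a-high cells Krt6a ran from 4363 to 12489 TPM and Krt17 from 1492 to 17540 TPM, and in Krt6a-low cells Krt6a ran from 15.4 to 1600 TPM and Krt5 from 123 to 4362 TPM.

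Daughter cells of 1 division mostly resembled each other in Krt6a. Both cells were Krt6a-high in 7 pairs and both Krt6a-low in 8 pairs. In 8 pairs a high cell had a middle sister and in 6 pairs a low cell had a middle sister, in 17 pairs both were middle, and in 2 pairs the sisters were high and low. Thus 14 of the 24 high cells had a high sister and 16 of the 24 low cells a low one, and the 48 cells of both groups came from 17 pairs with a high and 16 pairs with a low cell. The level of the sister with more Krt6a was a median of 1.39 times that of the other, with a ratio under 1.5 in 28 pairs and of 2 or more in 13. Differences between pairs held 68.6% of the variance of log2(CPM + 1) of Krt6a, and 85.3% without pair 4. Random pairs of cells would also hold a share of this variance between them, and that share was not computed. Sisters shared a mother cell, a dish and a set, and these cannot be told apart.

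**Figure D2:**
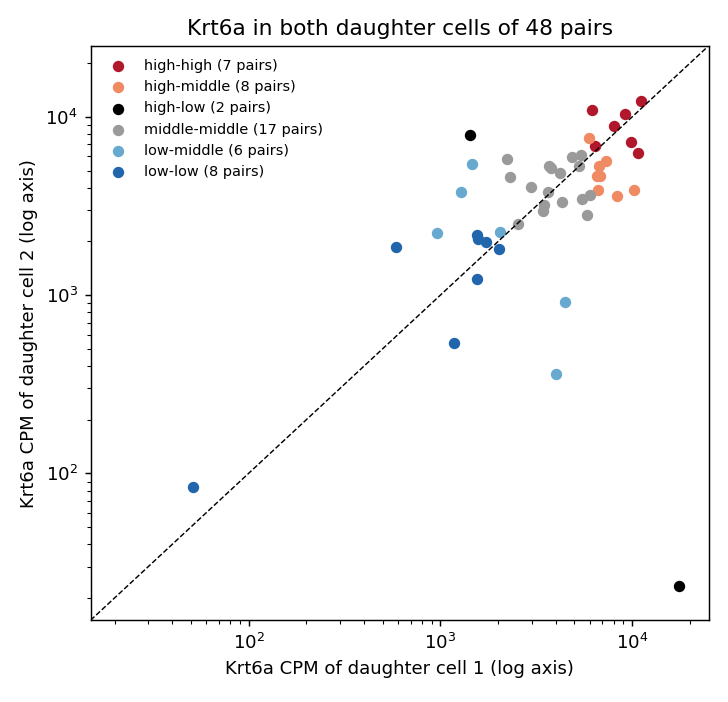
Krt6a level of both daughter cells of each of 48 pairs (log axes, CPM), colored by the groups of the daughter cells; the dashed line marks equal levels. Most pairs lie near the line, pair 4 is the black point at the lower right (17548 and 23.5 CPM) and pair 29 the black point above the line (1427 and 7919 CPM).

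Pair 4 held both ends of the ranking. Cell 4-1 had the highest Krt6a level of all 96 cells (17548 CPM, 787008 reads) and its sister 4-2 the lowest (23.5 CPM, 905 reads), a ratio of 748. The partner keratins went with it: Krt16 had 2089 and 0.104 CPM in 4-1 and 4-2, and Krt17 9294 and 19.9 CPM. Basal markers were also low in 4-2, with 17.9 CPM of Krt14, 175 CPM of Krt5 and 36.4 CPM of Trp63, against 3057, 2469 and 168 CPM in 4-1. The sisters differed in cornified envelope genes as well. Sprr2a1, a small proline-rich protein of the cornified envelope, had 29851 CPM in 4-2 and 2449 CPM in 4-1, whereas Cnfn (cornifelin) had 1.11 and 9433 CPM and Tgm1, the transglutaminase that cross-links the envelope, 0.311 and 392 CPM. Krt23 had 1300 CPM in 4-2 and 134 CPM in 4-1. Neither cell had much of the proliferation marker Mki67 (3.11 and 2.83 CPM). Cell 4-2 also had the highest mitochondrial share of the 96 cells (3.84%), 4.50% of reads on ERCC transcripts and 11654 genes detected.

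Both cells of pair 19 were lower in Krt6a than all cells but 4-2, and they differed from 4-2. Cells 19-1 and 19-2 had 2356 and 2185 CPM of Mki67, 381 and 635 CPM of Ccnb1 and 1079 and 1915 CPM of Krt5. Their Krt14 was at 232 and 209 CPM and their Krt16 at 0.416 and 0.428 CPM. In pair 29, the cell with 7919 CPM of Krt6a had 280 CPM of Il1rn and 166 CPM of Fosl1, but Krt16 was at 1.19 CPM and Krt14 at 213 CPM, the lowest of the Krt6a-high cells for both genes. The lowest Krt6a levels were thus found in cells without and with proliferation transcripts.

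The 14462 other genes that reached 10 counts in 10% of the cells were then compared. Each gene was described by the difference of mean log2(CPM + 1) between Krt6a-high and Krt6a-low cells, and by the share of the 576 combinations of 1 high with 1 low cell in which the high cell had the larger CPM. A gene was called higher at a difference of at least 1 and a share of at least 75%, and lower at a difference of −1 or less and a share of 25% or less. By this rule 85 genes (0.588% of those tested) were called higher and 47 (0.325%) lower in Krt6a-high cells. The median difference over all genes was −0.01. These counts come from the contrast that chose the cells, and a ranking by another gene was not tried. They also depended on scaling: when the same 48 cells were scaled by the ERCC spike-in, the median of all genes moved to 0.10, and 145 genes were called higher and 14 lower, with 84 of the 85 and 14 of the 47 among them. Without pair 4, 83 genes (0.574%) were called higher and 48 (0.332%) lower, 71 and 33 of them shared. After each gene was centred on the mean of its set of 8 cells, 49 (0.339%) and 17 (0.118%) were called, of which 30 and 5 were shared. The lists of genes below held 20 members called higher and 8 called lower, to be read beside the 0.588% and 0.325% of all genes tested. After centring on sets 7 of the 20 (Krt6b, Krt16, Krt17, Il1rn, Fosl1, Aldh1a3 and Ajuba) and none of the 8 were still called. With ERCC scaling 20 and 5 were, and without pair 4 17 and 8.

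Only 2 genes had no overlap between the groups (0.0138% of those tested), and both lie beside Krt6a. Krt6b, its close paralog, had 439 to 2410 CPM in Krt6a-high cells with a median of 645, 305 CPM as the median of middle cells, and 1.63 to 155 CPM with a median of 103 in Krt6a-low cells. The predicted keratin gene Gm5478 had 37.9 to 224 CPM in Krt6a-high and 0 to 19.1 CPM in Krt6a-low cells. These 2 genes had the largest rho with Krt6a over the 48 middle cells as well, 0.96 for Krt6b and 0.77 for Gm5478. Reads of near-identical genes cannot be told apart where the sequences match. Of the 2129 windows of 150 bases in the Krt6a transcript, 393 (18.5%) occur unchanged in that of Krt6b, and Krt6b was at 5.53% to 13.7% of the Krt6a CPM of the same cell in all 96 cells. Gm5478 shares 142 of its 2492 windows of 75 bases (5.70%) with Krt6a, and 6 of 2417 windows of 150 bases (0.25%). Its neighbor Gm5414, called higher with a difference of 2.09, shares 31 of 1585 (1.96%) and 0 of 1510. Of the 75-base windows of Krt6a, 797 of 2204 (36.2%) occur in Krt6b. Gm49428 (difference 1.84) overlaps Krt6a on the other strand, and the counting is not stated to use strand. The levels of these genes are therefore uncertain, with more shared sequence for Krt6b than for Gm5478 and Gm5414. Other type II keratins around Krt6a were not called: Krt5 had a difference of 0.78 (72.4% of combinations), Krt8 of 0.31 and Krt7 of 0.48.

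The other wound-response keratins were higher in Krt6a-high cells. All 3 members tested of this list beside Krt6a, Krt6b, Krt16 and Krt17, were called higher, with a median difference of 3.07. Krt75 was not tested. The level of Krt6b is uncertain, since it shares sequence with Krt6a, the gene that ranked the cells. Over the middle cells rho with Krt6a was 0.96 for Krt6b, −0.09 for Krt16 and −0.04 for Krt17. Krt16, a type I partner of Krt6a, had 1.19 to 2089 CPM with a median of 73.7 in Krt6a-high cells. In Krt6a-low cells it had 0.104 to 87.5 CPM with a median of 5.50. The groups overlapped, since 11 of the 24 Krt6a-high cells lay above the highest Krt6a-low cell. On the log2 scale the means were 5.97 ± 2.71 and 2.90 ± 1.76 (SD over 24 cells each), a difference of 3.07 with 82.3% of combinations. Of the 1491 windows of 75 bases of Krt16, 96 occur in Krt14, but of its 1416 windows of 150 bases 0 do. Some short reads of Krt16 may therefore be uncertain. Krt17 was abundant in nearly every cell, with 1460 to 16236 CPM (median 5330) in Krt6a-high and 19.9 to 5474 CPM (median 2648) in Krt6a-low cells. Its difference was 1.46, and 1.14 without pair 4.

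Basal and simple keratins other than Krt14 differed less, and the difference of Krt14 was close to that of Krt17. Krt14 had 213 to 8634 CPM with a median of 5226 in Krt6a-high cells and 17.9 to 5910 CPM with a median of 2487 in Krt6a-low cells, a difference of 1.48 with 81.1% of combinations. After centring on sets it was 0.91 and not called. Krt14 was the 1 gene called of the 16 HBC and basal cell markers, whose median difference was 0.26, and 0.14 without pair 4. Trp63 had medians of 252 and 138 CPM and a difference of 0.75 (71.3% of combinations), below the threshold. Of 7 simple keratins 1 was called, Krt19, with medians of 2811 and 1504 CPM and a difference of 1.08, which was 0.90 without pair 4, 0.66 after centring on sets, and not called in either. Krt23 had medians of 43.6 and 82.7 CPM (difference −1.38 with 34.0% of combinations, not called).

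**Figure D3:**
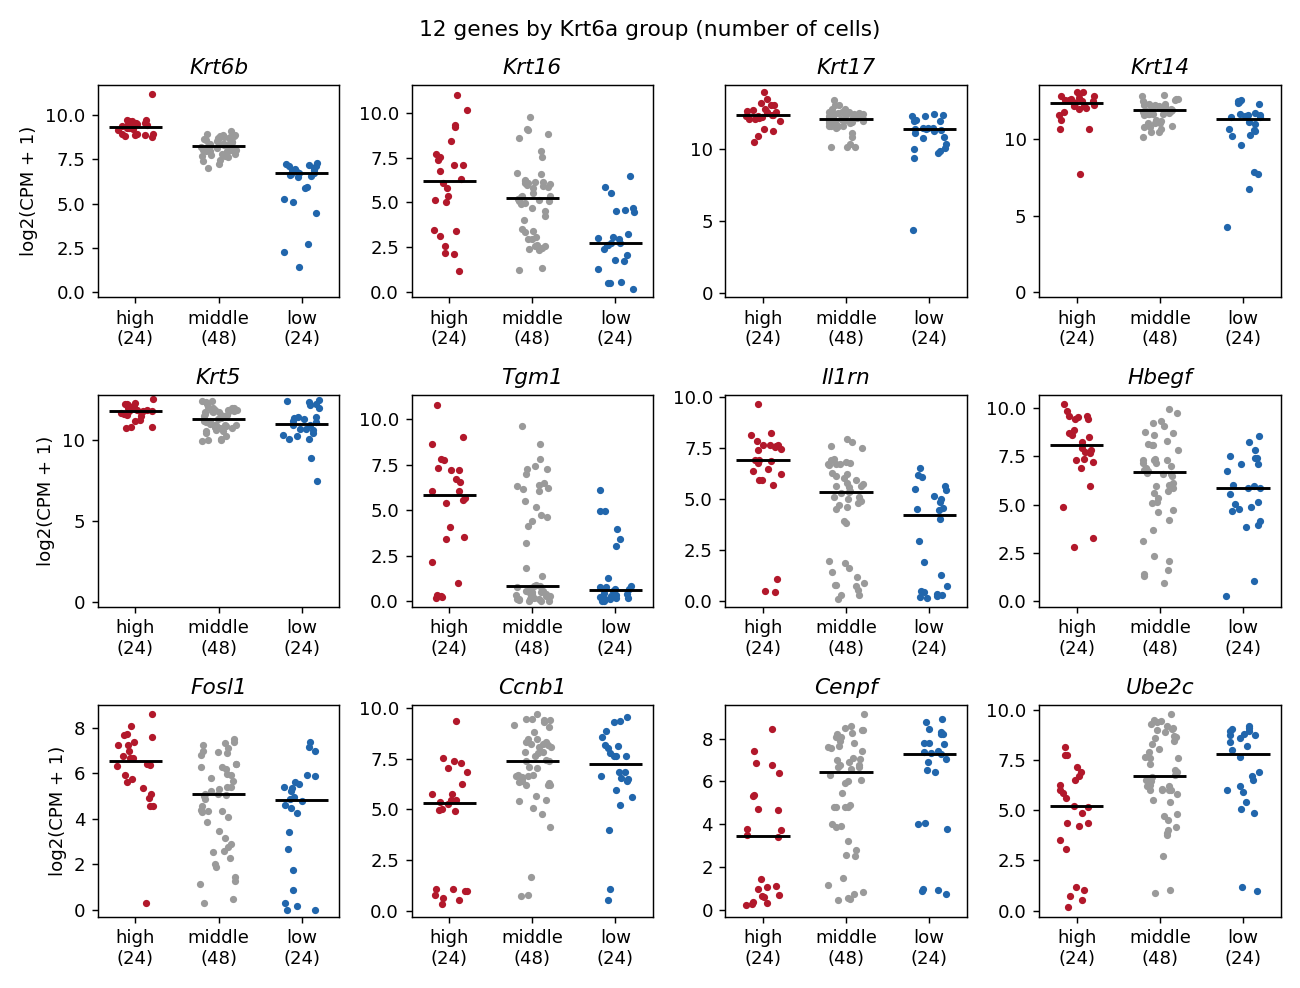
Levels of 12 genes (log2(CPM + 1)) in each Krt6a-high, Krt6a-middle and Krt6a-low cell; points are cells and bars are medians. Krt6b separates the groups, and the other genes overlap. Ccnb1, Cenpf and Ube2c have low points in both Krt6a-high and Krt6a-low cells. They were above their median over all cells in 6, 5 and 7 of 24 Krt6a-high cells. The counts were 28, 26 and 25 of 48 in middle cells and 14, 17 and 16 of 24 in Krt6a-low cells.

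Tgm1, on the list of small proline-rich and cornified envelope genes, had the largest difference of the genes on the lists. It had 0.116 to 1784 CPM with a median of 57.7 in Krt6a-high cells and 0 to 69.3 CPM with a median of 0.521 in Krt6a-low cells. Tgm1 was above its median over all cells in 19 of 24 Krt6a-high, 22 of 48 middle and 7 of 24 Krt6a-low cells. Its difference was 3.70 (83.2% of combinations), but Tgm1 was not called after centring on sets, where its difference was 2.40. Of the 19 small proline-rich and cornified envelope genes tested, Tgm1 was the only one called, while 17 had a difference above 0 and the median was 0.74. The small proline-rich gene Sprr1a had medians of 67.9 and 20.4 CPM and Sprr2a1 of 201 and 157 CPM, with wide overlap. None of 18 keratinocyte differentiation factors was called (median 0.22, but 0.08 without pair 4 and 0.09 after centring on sets). Klf4, one of them, had medians of 63.6 and 56.2 CPM. Cers3, which makes the very long ceramides of the skin barrier, and Nipal4, another gene of that barrier, are on none of the lists. They were called higher with differences of 2.57 and 2.54, and neither was called after centring on sets (1.78 and 1.32). Cers3 was also no longer called without pair 4.

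Il1rn (ENSMUSG00000026981), the secreted antagonist of the interleukin-1 receptor, had 0.355 to 801 CPM with a median of 119 in Krt6a-high cells. In Krt6a-low cells it had 0.106 to 90.8 CPM with a median of 18.0. Of the 24 Krt6a-high cells 15 lay above the highest Krt6a-low cell, and the difference was 3.17 (88.7% of combinations), 2.69 after centring on sets and 3.09 without pair 4. It was the 1 gene called of 13 cytokines, chemokines and alarmins (median 0.62). Tnfaip3, an inhibitor of NF-kB signaling in that list, had medians of 36.5 and 0.199 CPM and was not called. Among EGF family ligands and receptors 2 of 13 were called, both ligands. Nrg1 had 83.9 to 953 CPM (median 364) in Krt6a-high and 1.18 to 835 CPM (median 89.8) in Krt6a-low cells, a difference of 2.48. Hbegf had medians of 277 and 57.3 CPM and log2 means of 7.82 and 5.62. Neither was called after centring on sets, with differences of 1.76 for Nrg1 and 1.58 for Hbegf, while the median of the list moved from 0.25 to 0.40. The receptors Egfr, Erbb2 and Erbb3 had differences of −0.14, −0.66 and −0.46 and were not called.

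Fosl1, a subunit of the transcription factor AP-1, was the 1 member called of 15 AP-1 and immediate early genes (median 0.57, and 0.37 after centring on sets). It had 0.223 to 387 CPM with a median of 92.1 in Krt6a-high and 0 to 164 CPM with a median of 27.6 in Krt6a-low cells, a difference of 2.18 with 80.0% of combinations. Fos and Jun had differences of 0.57 and −0.08 and were not called. Plaur, the receptor of urokinase, was the 1 called of 17 genes of migration and matrix remodelling (median 0.70, and 0.40 after centring on sets), with 28.4 to 404 CPM (median 191) against 0.680 to 403 CPM (median 57.1). Its difference of 2.04 had 79.0% of combinations, and 17 of 24 Krt6a-high against 6 of 24 Krt6a-low cells were above the median of all cells. It was not called after centring on sets (1.64).

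Genes that anchor basal cells and join them to neighbors were also among those called. Of 15 genes of the hemidesmosome and basement membrane 3 were called higher (median of the list 0.54), among them Col17a1 and Itga6, which hold basal cells to the basement membrane. Col17a1 had medians of 407 and 201 CPM and a difference of 1.82, and Itga6 had 958 and 548 CPM and 1.03. Itga6 was at 0.74 without pair 4 and then not called. None of the 3 was called after centring on sets. In the desmosome, the plakophilins Pkp1 (difference 1.35) and Pkp3 (1.37) were called higher and the cadherin Dsg2 (−1.06) lower, of 10 tested with a median of 0.47, and none of the 3 after centring on sets.

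Sfn (14-3-3 sigma, a cell cycle checkpoint protein of epithelia) had the highest share of combinations among the genes called other than Krt6b, Gm5478 and Gm5414, 92.4%. It had 946 to 5972 CPM with a median of 1930 in Krt6a-high cells and 30.8 to 2385 CPM with a median of 1092 in Krt6a-low cells. Its difference was 1.41, and 1.05 after centring on sets. Aldh1a3, an enzyme that makes retinoic acid, had 13.9 to 2544 CPM (median 399) in Krt6a-high and 0.607 to 347 CPM (median 87.7) in Krt6a-low cells, and 14 of 24 Krt6a-high cells lay above all Krt6a-low cells. Igfbp3, a binding protein of insulin-like growth factors, had medians of 565 and 135 CPM. Both were higher in Krt6a-high cells in all 7 sets that held cells of both groups. So were 16 of the 85 genes called higher and 124 of the 14462 tested. These are the cells that made the calls, and set 8 held 1 Krt6a-high and set 4 held 1 Krt6a-low cell. Ajuba, a LIM protein that acts on Hippo signaling, was the 1 called of 12 genes of the Yap1 and Hippo pathway (difference 1.39, list median 0.39, and 0.15 after centring on sets), and Yap1 itself had a difference of −0.30. S100a3 was the 1 called of 10 S100 genes (2.01, list median 0.60), but not after centring on sets (1.69).

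In metabolism, the lactate transporter Slc16a3 and the uridine phosphorylase Upp1 were called higher. Slc16a3 was nearly absent from many Krt6a-low cells, with 0 to 563 CPM and a median of 0.924, against 0.269 to 724 CPM with a median of 117 in Krt6a-high cells. Its difference was 2.84 at 75.2% of combinations, next to the threshold, and it was not called without pair 4 or after centring on sets. It was the 1 called of 20 genes of glycolysis and hypoxia, of which 18 had a difference above 0, with a median of 0.54. Eno1 had medians of 5987 and 4234 CPM (difference 0.53, 79.7% of combinations) and Tpi1 of 1844 and 1202 CPM (0.55, 76.7%), too small a difference to be called. In the 48 middle cells, which the split left out, 18 of the 20 had a rho with Krt6a above 0, with a median of 0.21. Of all genes tested 52.8% did, and 87.4% with ERCC scaling, for which the list was not counted.

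Aldh1a3 was the only gene called of 18 xenobiotic enzymes and surface genes of the olfactory and airway epithelium, and it went against the median of the list, −0.48, since 13 of the 18 were below 0. Without pair 4 that median was −0.28. Tmprss11d, 1 of the 5 members above 0, had the largest difference of the list (2.47, 68.9% of combinations, not called). Adh7, an alcohol dehydrogenase, had medians of 244 and 594 CPM (difference −1.91, 33.9% of combinations, and −1.74 without pair 4), not called. None of 18 Nrf2 targets and antioxidant enzymes was called, but 16 were below 0 with a median of −0.38. With ERCC scaling 13 were, with a median of −0.15, and after centring on sets 15, with −0.25. The glutamate-cysteine ligase subunits Gclc and Gclm had medians of 373 and 602 CPM in Krt6a-high and 822 and 1332 CPM in Krt6a-low cells.

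**Figure D4:**
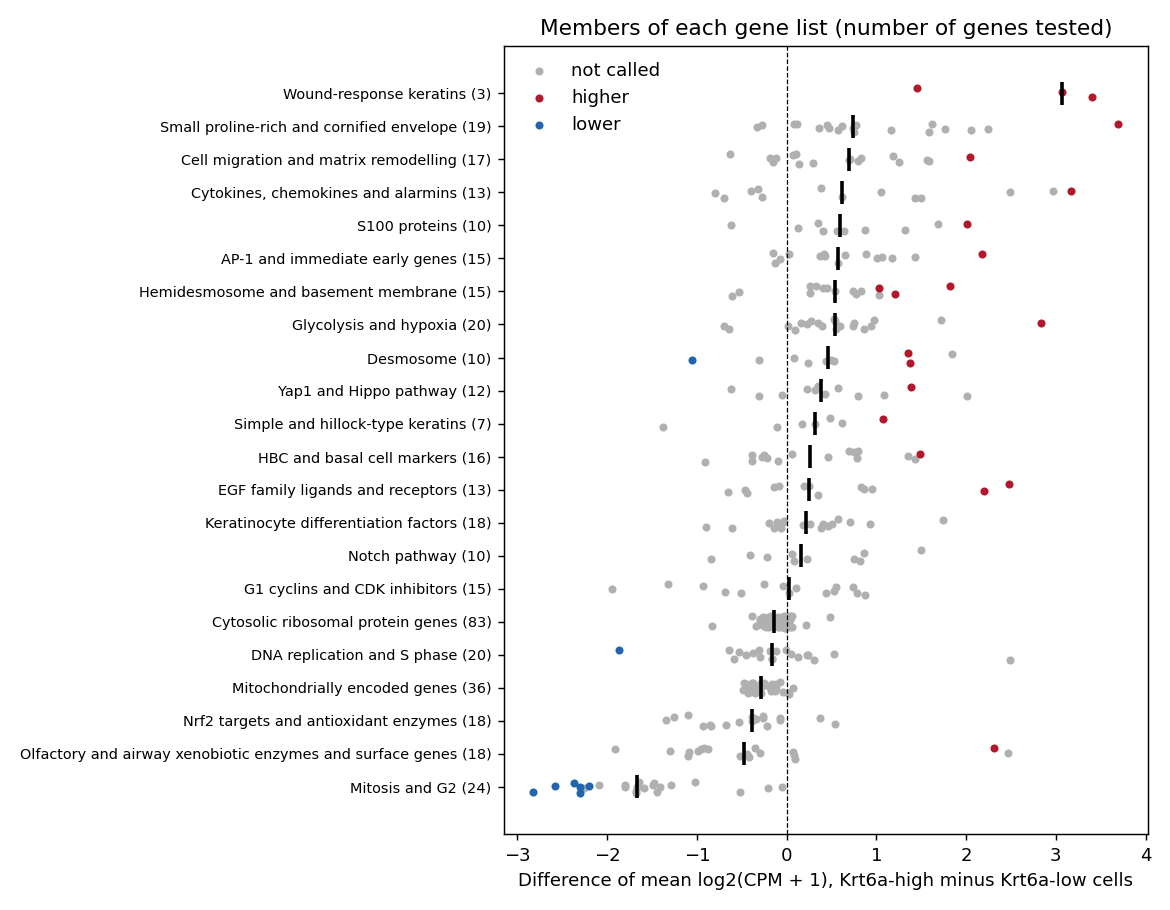
Difference of mean log2(CPM + 1) between Krt6a-high and Krt6a-low cells for each tested member of the gene lists (points) with the median of the list (bar); red and blue points are genes called higher and lower. The wound-response keratins lie farthest to the right (median 3.07) and the mitosis and G2 genes farthest to the left (median −1.67).

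Genes of G2 and mitosis made up the other side of the comparison. All 24 of this list had a difference below 0, with a median of −1.67, and 6 were called lower: Ccnb1 and Ccnb2 (B-type cyclins), Cenpf (kinetochore), Hmmr and Tpx2 (spindle) and Ube2c, the ubiquitin-conjugating enzyme of the anaphase-promoting complex. Cenpf had 0.178 to 349 CPM with a median of 9.84 in Krt6a-high cells and 0.667 to 478 CPM with a median of 157 in Krt6a-low cells, a difference of −2.82. Ccnb1 had medians of 39.3 and 157 CPM (−2.37) and Ube2c of 35.5 and 228 CPM (−2.30). Outside the list, Cdc25c, the phosphatase that activates CDK1 at the entry into mitosis, had the largest negative difference among the genes called, −3.16, with medians of 0.175 and 24.1 CPM. Mki67 had medians of 299 and 519 CPM (difference −1.59, 28.1% of combinations) and was not called. The ranges overlapped for these genes, and cells with high and with almost no mitotic transcripts occurred in both groups.

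Averaged per cell over the 24 genes on the log2 scale, the mitotic level ran from 1.29 to 7.35 with a median of 4.90 in Krt6a-high cells. It ran from 1.31 to 8.58 with a median of 6.45 in Krt6a-low cells. The middle cells had a median of 6.13, close to that of the low cells. Of the Krt6a-high cells 7 of 24 were above the median of all 96 cells, against 28 of 48 middle and 13 of 24 low cells. The lower level was thus found at the upper end of the Krt6a ranking: over the 48 middle cells rho with Krt6a was −0.03, against −0.26 over all 96 cells. Sisters were alike in this average, with 86.1% of its variance between pairs, so that the 24 cells of a group hold fewer independent values. The share for random pairs was not computed here either.

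The mitotic difference was not the same in all sets. Of the 7 sets with cells of both groups, the mean of the Krt6a-high cells was below that of the Krt6a-low cells in sets 6, 8, 9 and 11 and above it in sets 1, 4 and 7. In set 11 the means were 2.10 and 7.28 (2 cells each), and in set 7 they were 6.09 (3 cells) and 4.49 (2 cells). Set 8 held 6 Krt6a-low cells and 1 Krt6a-high cell, set 2 held 4 high and no low cells, and set 5 held 4 low and no high cells. The cells of set 2 had a median mitotic level of 3.22 and those of set 5 of 5.97. After centring on sets, the median difference of the list was −0.91 in place of −1.67, with 21 of the 24 below 0, and none of the 6 genes stayed called, while Cdc25c did (−2.10). What a set shares is not stated, and the Krt6a level and the set cannot be fully told apart.

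**Figure D5:**
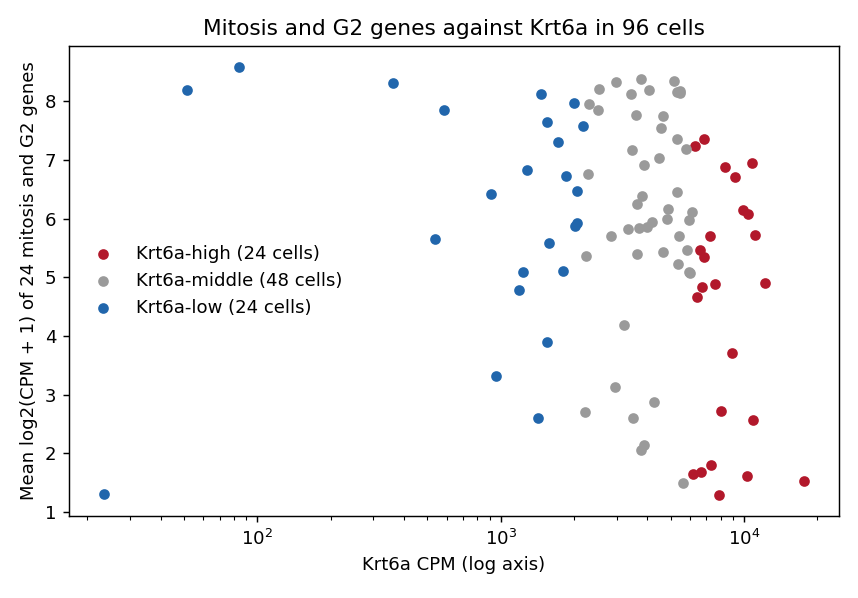
Mean log2(CPM + 1) of 24 mitosis and G2 genes in each cell against its Krt6a level (log axis, CPM). Krt6a-high cells lie between 1.29 and 7.35 and Krt6a-low cells between 1.31 and 8.58, and the lowest point at the far left is cell 4-2.

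Genes of DNA replication did not follow those of mitosis. Of 20, Tyms (thymidylate synthase) was the 1 called lower, with medians of 60.0 and 115 CPM and a difference of −1.87. It was not called with ERCC scaling (−1.66) or after centring on sets (−1.33). The median of the list was −0.16, and it turned to 0.05 with ERCC scaling and to 0.19 after centring on sets. Among the middle cells all 20 had a rho with Krt6a above 0, with a median of 0.21, beside 52.8% of all genes tested (87.4% with ERCC scaling). Cyclin E1 (Ccne1) had medians of 69.8 and 1.75 CPM, a difference of 2.49 and 74.1% of combinations, just short of being called. None of 15 G1 cyclins and CDK inhibitors was called, and their median of 0.03 changed sign without pair 4 (−0.18), with a pseudocount of 10 and with sisters averaged.

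Other lists held no calls. These were 10 genes of the Notch pathway (median 0.16, and 0.05 after centring on sets), 83 genes of cytosolic ribosomal proteins (−0.15, and 0.09 with ERCC scaling), 36 mitochondrially encoded genes (−0.28, and −0.08 with ERCC scaling), 2 tested markers of other OE cells (0.32) and 1 of non-epithelial cells (0.92). H3f3a and H3f3b, the genes of histone H3.3, had differences of −0.19 and −0.35 and were not called.

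The remaining genes of largest difference came from several functions. Higher in Krt6a-high cells were Rapgef3 (2.62), an exchange factor activated by cyclic AMP, the receptors Gprc5a (2.60) and S1pr2 (2.38), the potassium channel Kcnn4 (2.59), Tor4a (2.55) and Ints8 (2.54) of the Integrator complex. Rapgef3 was not called without pair 4. Lower in Krt6a-high cells were Lypd6b (−2.59), Cdca3 (−2.45), Hectd3 (−2.45), the lactate dehydrogenase subunit Ldhb (−2.40), Mospd1 (−2.36), the kinetochore gene Knl1 (−2.19), Epas1 (−2.18), a hypoxia-inducible factor, and Atxn7 (−2.01). Epas1 and Hectd3 were not called without pair 4. After centring on sets Gprc5a, S1pr2, Ints8 and Ldhb were still called, and Rapgef3, Kcnn4, Tor4a, Lypd6b, Cdca3, Hectd3, Mospd1, Knl1, Epas1 and Atxn7 were not. With ERCC scaling Cdca3, Knl1, Epas1 and Atxn7 were not called.

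The sequence upstream of the genes called is shown for 4 genes that carry motifs known from these gene classes. The windows are the 250 bases before the RefSeq start of transcription in GRCm38.p6, read 5′ to 3′ on the strand of the gene. Il1rn (chr2:24336610-24336859, plus strand), Plaur (chr7:24462233-24462482, plus strand) and Upp1 (chr11:9117853-9118102, plus strand) were called higher. Capitals mark TGANTCA in them, letters that include the AP-1 sites TGACTCA and TGAGTCA. Ccnb2 (chr9:70421555-70421804, minus strand) was called lower. Capitals mark TTTGAA and CCAAT in it, the letters of 2 elements known from promoters of G2 and mitosis genes. Bases after the start were not searched, and whether these matches act as those elements was not tested. The last 7 bases before the RefSeq start of Il1rn lie inside the gene as deposited.
Il1rn: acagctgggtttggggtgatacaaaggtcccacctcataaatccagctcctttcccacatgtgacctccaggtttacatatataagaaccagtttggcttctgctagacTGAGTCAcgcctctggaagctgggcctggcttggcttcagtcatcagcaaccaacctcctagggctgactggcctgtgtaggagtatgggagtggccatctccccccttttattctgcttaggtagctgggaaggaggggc
Plaur: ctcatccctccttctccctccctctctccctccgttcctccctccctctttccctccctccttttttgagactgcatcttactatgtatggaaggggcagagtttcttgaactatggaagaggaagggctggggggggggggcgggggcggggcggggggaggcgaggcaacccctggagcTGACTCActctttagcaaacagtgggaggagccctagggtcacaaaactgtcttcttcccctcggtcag
Upp1: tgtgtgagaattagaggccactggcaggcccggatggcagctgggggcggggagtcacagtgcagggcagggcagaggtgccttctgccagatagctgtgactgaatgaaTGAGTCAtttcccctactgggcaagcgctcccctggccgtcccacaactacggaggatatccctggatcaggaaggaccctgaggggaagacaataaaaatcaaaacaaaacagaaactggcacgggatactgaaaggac
Ccnb2: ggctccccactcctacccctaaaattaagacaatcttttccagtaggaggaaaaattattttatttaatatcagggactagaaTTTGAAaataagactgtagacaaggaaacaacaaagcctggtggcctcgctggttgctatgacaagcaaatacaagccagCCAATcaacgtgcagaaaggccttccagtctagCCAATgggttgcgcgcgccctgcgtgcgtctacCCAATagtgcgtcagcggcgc

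Both strands were searched, and a gene was counted once per motif, whatever the number of matches or their overlap. TGANTCA was found in 9 of the 59 genes called higher with a window (15.3%) and in 1 of the 36 called lower (2.78%). Beside them stand 4.23% of the 9677 genes tested with a window and 6.75% of all 32851 windows. These counts include TGAATCA, found in Serpinb5 and Trappc3, called higher, and in Klf9, called lower. TTTGAA was found in 3 of 59 (5.08%) and 7 of 36 (19.4%), beside 10.7% of genes tested and 16.0% of all windows. CCAAT was found in 15 of 59 (25.4%) and 21 of 36 (58.3%), beside 37.1% and 33.8%, and in 17 of the 20 mitosis and G2 genes with a window. Such a match is a description of the letters in this window.

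The 48 middle cells were not used by the split, and they followed it weakly. Over these cells 59 of the 85 genes called higher (69.4%) had a rho with Krt6a above 0, beside 52.8% of all genes tested, with a median of 0.10. Of the 47 genes called lower, 15 (31.9%) had a rho above 0, with a median of −0.05. Lists and single genes went both ways. With CPM, rho was above 0 for 8 of 19 cornified envelope, 6 of 15 AP-1 and 4 of 13 cytokine list genes (medians −0.003, −0.02 and −0.07). It was above 0 for 14 of 16 HBC and basal markers and 11 of 15 hemidesmosome list genes (medians 0.14 and 0.13). Pkp1 (0.48), Krt14 (0.36), Col17a1 (0.34) and Aldh1a3 (0.31) lay above 0.26, the level that 5% of all genes exceed, whereas Krt16 (−0.09), Tgm1 (−0.08), Hbegf (−0.20) and Il1rn (0.02) lay near or below 0. With ERCC scaling rho was above 0 for 83 of the 85, for 42 of the 47 and for 87.4% of all genes, so that the genes called lower no longer stood on the other side. The genes of highest rho other than Krt6b, Gm5478 and Gm5414 were Dapk2 (0.55), Etnk1 (0.54), Tecpr2 (0.54), Tmem41a (0.52), the glycolytic enzyme Gpi1 (0.51), Med20 (0.49) and Tymp (0.49). Those of lowest rho were Bcap31 (−0.55), Tpt1 (−0.54), Snap23 (−0.52), Cldn4 (−0.51), a tight junction claudin, Pla2g4a (−0.51) and Ndufa4 (−0.51). The cells share scaling and culture, and weak values in single cells are no finding.

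Within pairs, the sister with more Krt6a tended to have more of the genes called higher. Over 48 pairs the sister difference had a rho with that of Krt6a above 0 for 77 of 85 genes called higher (90.6%, median 0.24) and for 1 of 47 called lower (median −0.21), beside 45.4% of all genes. Most of these pairs hold a cell that the split had used. In the 17 pairs of 2 middle cells the numbers were 53 of 85 (62.4%) and 25 of 47 (53.2%), beside 50.5% of all genes. For single genes, the sister with more Krt6a had more Krt5 in 35 of 48 pairs, more Fosl1 in 33 and more Hbegf in 32. She had more Krt14 in 31 and more Krt16 in 30, but more Tgm1 in 21 and more Ccnb1 in 14. The share of all genes that reach such counts is not given here. Of the Krt6a windows of 75 bases 100 of 2204 (4.54%) occur in Krt5, and of those of 150 bases 0 of 2129. Within sets, 57 of the 85 genes were higher in Krt6a-high cells in at least 6 of the 7 sets with both groups, 16 of them in all 7, beside 6.45% of all genes in at least 6. Of the 47 genes called lower 23 were higher in at most 1 set, beside 8.94% of all genes. These are the cells that made the calls, and the numbers describe how evenly the calls were spread.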

How the data were processed

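Poly(A) RNA of 96 cells was sequenced by G&T-seq without molecular identifiers, so that PCR copies count as reads. The authors trimmed reads with Trimmomatic 0.39, aligned them with STAR 2.7.11a to GRCm38 and counted them with StringTie 2.2.1, per the labels. They deposited whole-number counts of 55487 genes and 92 ERCC transcripts, without normalization, and the authors' TPM tables, which are scaled for gene length and library.

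CPM was computed on gene counts without ERCC, and log2 values used a pseudocount of 1. Genes with 10 or more counts in 10% of cells were kept (14463 with Krt6a). ERCC size factors were the median of ratios over 22 transcripts. No tests between groups were made, since all cells are 1 sample. The script was tested on simulated data. Python 3.11.15, numpy 2.4.6, scipy 1.17.1, pandas 2.3.3 and matplotlib 3.10.9 were used. Promoter windows come from RefSeq and shared windows from GENCODE transcripts.

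The members, gene lists and alternatives were chosen with earlier results of these data known. Genes named were Krt6a, the 15 called genes of largest difference in each direction, list members called (otherwise of largest difference), the 10 highest and lowest rho over middle cells, neighbors of Krt6a and genes the study names. Further genes were named after their values were seen, among them Tnfaip3, Sprr2a1, Cnfn, Sfn, Igfbp3, Ccne1, Eno1, Tpi1, Gclc, Gclm, Adh7, Sprr1a, Klf4, Egfr, Erbb2, Erbb3, Fos and Jun, and so were pairs 4, 19 and 29. Some genes are not reported here.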

Additional observations from a re-analysis of the deposited data

How the results depend on the processing

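Of 70 alternative counts and shares, 51 stayed within 1.5 times the reported value. Another 175 alternatives concern medians of lists. All moved by less than 1 SD between cells, a spread too wide to show that they are stable, and those that changed sign were of DNA replication, G1 and ribosomal protein genes and of all genes tested. Against 85 genes higher and 47 lower, there were 712 and 2 with ERCC size factors and cells ranked anew, 145 and 14 with ERCC size factors on the same cells, 417 and 306 with 12 against 12 cells, 5 and 1 with 48 against 48 cells, 808 and 563 with the difference alone, 49 and 17 after centring on sets, and 157 and 100 with the sisters of a group averaged. A pseudocount of 10 left 27 lower. The cause was not tested, except that dropping the share of combinations relaxes the rule. With median-of-ratios factors over genes there were 121 and 35, and with TPM 120 and 32. Leaving out each set in turn gave 85 to 121 genes higher and 43 to 84 lower, with 73, 74 and 84 lower without sets 1, 4 and 7. In the middle cells 5 of the genes called lower had a rho below 0 with ERCC size factors, against 32. Krt6a itself kept 18 of 24 high and 22 of 24 low cells with ERCC size factors. Reads and not molecules were counted, so that depth gives no error for a cell.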
